A study of Mus musculus with 23 samples.

Results

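The 3 lung tumours of Rarres1 knockout (KO) mice were compared with 5 non-tumour lungs of KO mice, at 18 months of age. The members are the libraries that the labels mark as tumour or non-tumour among the KO lungs of that age, 8 of the 23 libraries of the series. Rarres1 is a retinoid-responsive gene, and its deletion is shared by both groups, so the comparison sets tumour against lung tissue of 1 genotype. The tumours carry the animal codes 1, 3 and 6 and the lungs the codes 1, 2, 3, 6 and 7, so 3 animals gave both tissues. For the lungs coded 6 and 7 the titles count on as 4 and 5, and the codes are used here. Lungs of 3 wild-type (WT) mice of the same age serve as background. All these mice are labelled as C57BL/6 males, were given no treatment and were kept in a pathogen-free barrier. For a few genes the levels in WT and KO lungs of embryonic day 19.5 are given too. The labels give neither the construction of the KO allele, nor the histology of a tumour, nor the share of tumour cells in a piece. In bulk RNA, fewer cells of a type and less RNA per cell cannot be told apart.

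The gas exchange surface of the lung is lined by flat type 1 cells and by cuboidal type 2 cells, which make and store surfactant and can divide to renew the surface. The airways are lined by secretory club cells and by ciliated cells. Adenomas and adenocarcinomas of mouse lung often carry markers of type 2 cells, and the MAPK cascade, which passes growth factor signals from receptors through Ras to the nucleus, is often active in them. The transcription factor NKX2-1 drives surfactant genes in type 2 cells, and HNF1 and HNF4 factors drive plasma protein genes in liver.

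Promoters of 5 genes that were higher in the tumours are shown because these genes stand for 3 groups of the results: surfactant proteins, plasma proteins and imprinted RNAs. Each window runs from 250 bases before to 50 bases after the start of the gene in the RefSeq table for GRCm38.p6, 5′ to 3′ on the strand of the gene. Capitals mark 3 motifs, searched on both strands. The first is CTCAAG, a core that NKX2-1 binds. Next comes 1 arm of an HNF1 site, with the letters GTTAAT. The last is the TATA box, with the letters TATAAA. Of the 34 genes named for the size or abundance of their change, 24 have a promoter in that table.
Sftpb: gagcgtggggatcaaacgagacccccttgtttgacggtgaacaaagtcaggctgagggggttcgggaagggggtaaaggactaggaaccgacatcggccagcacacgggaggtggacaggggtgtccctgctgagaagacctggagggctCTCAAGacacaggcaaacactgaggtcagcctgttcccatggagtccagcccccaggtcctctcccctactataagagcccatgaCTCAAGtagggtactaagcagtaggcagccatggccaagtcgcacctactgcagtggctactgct
Sftpa1: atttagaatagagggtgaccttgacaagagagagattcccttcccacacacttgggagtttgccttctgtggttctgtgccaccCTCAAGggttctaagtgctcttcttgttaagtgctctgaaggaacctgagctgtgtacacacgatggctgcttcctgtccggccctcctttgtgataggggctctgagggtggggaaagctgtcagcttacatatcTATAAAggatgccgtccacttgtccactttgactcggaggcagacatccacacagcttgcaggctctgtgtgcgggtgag
Fga: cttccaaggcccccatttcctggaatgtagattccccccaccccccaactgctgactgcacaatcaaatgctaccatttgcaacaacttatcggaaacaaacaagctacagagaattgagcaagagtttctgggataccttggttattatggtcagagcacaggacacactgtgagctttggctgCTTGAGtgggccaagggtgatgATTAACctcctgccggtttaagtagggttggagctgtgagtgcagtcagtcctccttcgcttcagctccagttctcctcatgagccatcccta
Fgg: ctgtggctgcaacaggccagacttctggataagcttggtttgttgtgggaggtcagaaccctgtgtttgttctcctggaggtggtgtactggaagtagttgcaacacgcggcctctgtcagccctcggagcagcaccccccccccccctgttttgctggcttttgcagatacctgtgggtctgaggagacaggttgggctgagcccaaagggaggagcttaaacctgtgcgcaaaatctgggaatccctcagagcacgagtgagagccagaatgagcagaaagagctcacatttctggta
Meg3: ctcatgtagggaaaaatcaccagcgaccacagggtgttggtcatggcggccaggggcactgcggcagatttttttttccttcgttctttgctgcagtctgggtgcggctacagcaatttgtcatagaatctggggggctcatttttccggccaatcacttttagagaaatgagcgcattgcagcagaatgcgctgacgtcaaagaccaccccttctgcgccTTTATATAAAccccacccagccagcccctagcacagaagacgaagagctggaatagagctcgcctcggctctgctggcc
The windows are chr6:72304360-72304659 (plus strand), chr14:41131538-41131837 (plus strand), chr3:83025903-83026202 (plus strand), chr3:83007474-83007773 (plus strand) and chr12:109540746-109541045 (plus strand). CTCAAG or its reverse complement occurred 2 times in the Sftpb window, 1 time in the Sftpa1 window and 1 time in the Fga window, and 15.9% of all 32851 promoters of this length in the table hold it. GTTAAT occurred 1 time, in the Fga window, against 7.1% of all promoters. TATAAA occurred 1 time in the Sftpa1 window and 2 times, overlapping on opposite strands, in the Meg3 window, against 13.6% of all promoters. The Fgg window held none of the 3. A match is a run of letters and not a measured site.

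Libraries held 25520153 to 32039116 counts in the tumours and 23661181 to 46566642 counts in the KO lungs. Rarres1 had 1, 0 and 0 reads in tumours 1, 3 and 6 and 0 reads in each KO lung, against 61, 64 and 62 reads in the WT lungs. KO lung 7 went against its label. It is labelled male, but its level of Xist, the RNA that silences 1 X chromosome in females, was 836 CPM (counts scaled to library size) in that lung, against 0.0705 to 1.26 CPM in the other 7 libraries. The Y-linked genes Ddx3y, Eif2s3y, Kdm5d and Uty had 0 reads in it, and 47.1 to 70.8, 27.4 to 50.2, 21.4 to 33.5 and 15.0 to 25.7 CPM in the other 7. This lung gave no tumour library. Results are therefore also given without it.

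Tumour 6 stood apart from the other tumours. The first principal component held 52.9% of the variance, and tumours 1 and 3 lay at -55.7 and -56.1 on it, tumour 6 at -11.4 and the KO lungs at 17.4 to 33.0. On log2(CPM + 1), tumour 6 correlated with the KO lungs at 0.967 to 0.972 and with tumours 1 and 3 at 0.960 and 0.967. Counts are given with and without it.

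**Figure D1:**
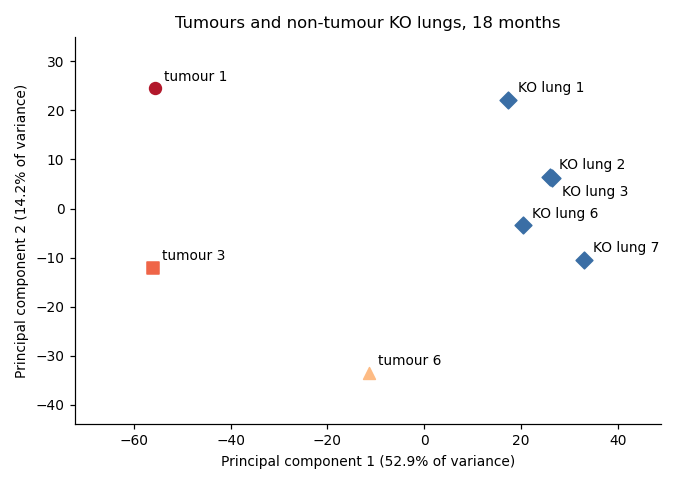
Principal components 1 and 2 of log2(CPM + 1) over the genes tested, with 1 point per library (tumours 1, 3 and 6, and 5 non-tumour KO lungs). Tumour 6, at -11.4 on component 1, lies between tumours 1 and 3 and the lungs.

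Of 15459 genes tested, 1113 were higher and 1022 were lower in the tumours. The test was edgeR's quasi-likelihood test on rounded expected counts, with Benjamini-Hochberg adjustment over all genes tested. Genes with an adjusted p under 0.05 are said to be called, higher or lower. Adjusted p-values come from this test unless a block or a library left out is named, and log2 fold changes are tumour over KO lung with their standard error. Called genes were 13.8% of those tested, 7.2% higher and 6.61% lower. At least 2-fold changes were called for 582 higher genes (3.76%) and 637 lower genes (4.12%). In 1595 genes (10.3%) all tumours stood above all KO lungs, and in 1649 (10.7%) all stood below. Of the calls 52.1% were higher, and 53.4% with DESeq2's size factors in the same test. With limma on log2(FPKM + 1), which changes the unit, the test and the scaling together, 37.5% were higher, with 784 genes higher (5.07%) and 1305 lower (8.44%), 13.5% in all. DESeq2 called 1680 genes higher (10.4% of 16161 tested) and 1732 lower (10.7%), 21.1% in all.

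The counts also depended on single libraries. Without tumour 6, 1832 genes were higher and 2234 were lower (11.7% and 14.3% of 15670 tested, 25.9% in all), and 2028 of the 2135 calls kept their call and direction. Without KO lung 7, 783 were higher and 670 lower (5.09% and 4.36% of 15377 tested, 9.45% in all). Without both, 1599 were higher and 1962 lower (10.3% and 12.6% of 15553 tested, 22.9% in all). Leaving out tumour 3 gave the fewest calls, 663 higher and 410 lower, and leaving out tumour 1 gave 816 higher and 472 lower. Without KO lung 1, 2 or 3 the lower calls numbered 576, 522 and 572, and without KO lung 2 or 3 the higher calls numbered 624 and 683. With the animal as a block, which leaves 3 pairs to carry the comparison, 84 genes were higher and 62 were lower (0.543% and 0.401% of those tested, 0.944% in all). With the animal as a random effect in limma-voom, which also draws on the unpaired lungs, 1208 were higher and 1355 lower (7.81% and 8.77%, 16.6% in all), and 2067 of the 2135 calls held. Where a block is named for a gene or list, it is the fixed one. Counts for the lists below stand against the shares over all genes tested. These were 7.2% higher and 6.61% lower with all 8 libraries, and 11.7% and 14.3% without tumour 6.

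**Figure D2:**
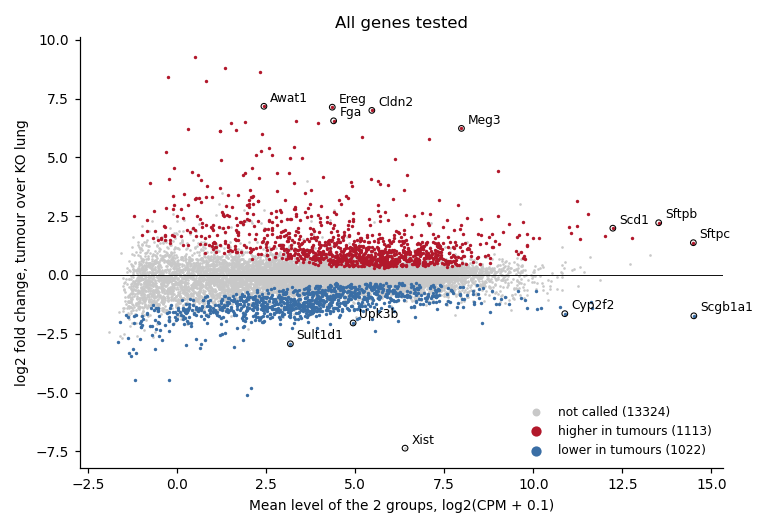
Each point is 1 of the 15459 genes tested, with the mean level of the 2 groups in log2(CPM + 0.1) on the x axis and the log2 fold change, tumour over KO lung, on the y axis. Red points are the 1113 genes called higher in the tumours, blue points the 1022 called lower and grey points those not called, and the lowest grey point is Xist, high in KO lung 7 alone.

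The largest rises were in genes at low levels in the lungs. The genes named here are the 12 called genes with the largest change in each direction, whose groups do not overlap and whose higher group averages 10 CPM or more, so that the choice itself fixes that their groups are apart. Genes near 0 in the lungs, among them Awat1, Ereg, Khdc1a, Tmem213 and Ankrd22, also passed the filter for a test only through the tumours. Ereg encodes epiregulin, a ligand of the EGF receptor. It stood at 9.05, 88.3 and 23.8 CPM in tumours 1, 3 and 6, against 0.423, 0.424, 0.171, 0.285 and 0.156 CPM in KO lungs 1, 2, 3, 6 and 7, a log2 fold change of 7.13 ± 0.74 (adjusted p = 0.00136). Every tumour was above every lung, tumour 3 was the highest, and without tumour 3 the log2 fold change was 5.86. Cldn2 encodes claudin-2, which forms a cation pore in tight junctions. Its levels were 81.4, 159 and 21.8 CPM in the tumours, against 1.20, 0.616, 0.299, 0.855 and 0.544 CPM in the KO lungs (6.996 ± 0.64, adjusted p = 0.000963). Tumour 3 was again the highest, and without it the log2 fold change was 6.25. Awat1, an enzyme of wax ester synthesis, was uneven among the tumours. It had 27.3, 1.54 and 2.75 CPM in tumours 1, 3 and 6, against 0 to 0.285 CPM in the KO lungs (7.17 ± 1.18, adjusted p = 0.00612). Its log2 fold change was 4.89 without tumour 1 and 8.54 without KO lung 6. Khdc1a, a gene with a KH domain, had 2.31, 25.8 and 1.94 CPM in the tumours, against 0.0214 to 0.366 CPM in the KO lungs (5.99 ± 1.04, and 3.76 without tumour 3).

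Tmem213, a gene for a membrane protein, had 29.2, 51.8 and 9.502 CPM in the tumours, against 0.122 to 0.670 CPM in the KO lungs (6.47 ± 0.58, and 5.84 without tumour 3). At embryonic day 19.5 it ranged from 81.7 to 110 CPM over the WT and KO lungs, above all 3 tumours. Ankrd22 stood at 8.85, 19.4 and 6.28 CPM in the tumours and 0.117 to 0.570 CPM in the KO lungs (5.39 ± 0.49, and 4.805 without tumour 3). Orm1 encodes an acute-phase plasma protein and has close paralogs that can share its reads. It had 34.5, 18.1 and 3.41 CPM in the tumours, against 0.116 to 0.692 CPM in the KO lungs (5.43 ± 0.71, and 4.66 without tumour 1). Tumour 6 was the lowest for Tmem213, Ankrd22 and Orm1, and still above every lung. All 12 of the largest rises, which also include Fga, Fgg, Meg3 and Rian below, kept their call when any 1 library was left out. Of the 12, 9 stayed called with the animal as a block. Awat1, Khdc1a and Orm1 did not (adjusted p = 0.07, 0.136 and 0.0621 with the block).

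Among genes named by this rule, the largest falls were smaller in size than the largest rises. The rule leaves out genes that average under 10 CPM in the lungs, such as Cfd below, whose fall was larger than any of these. Sult1d1 encodes a sulfotransferase. It stood at 1.59, 2.56 and 2.09 CPM in tumours 1, 3 and 6, against 18.5, 14.9, 11.04, 16.9 and 17.7 CPM in KO lungs 1, 2, 3, 6 and 7, a log2 fold change of -2.93 ± 0.25 (adjusted p = 0.0007). The tumours were close to each other and all below the lowest lung. Pon1, a paraoxonase that hydrolyses lactones and esters, had 5.42, 15.0 and 25.2 CPM in the tumours, against 65.3 to 96.0 CPM in the KO lungs (-2.37 ± 0.42). Unc79, part of a sodium leak channel complex, had 2.74, 4.37 and 2.60 CPM in the tumours, against 9.48 to 20.2 CPM in the KO lungs (-2.24 ± 0.29). Both genes were low in each tumour, with tumour 1 the lowest for Pon1.

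Cnn1, the calponin of smooth muscle, had 6.64, 5.87 and 9.85 CPM in the tumours, against 26.7 to 40.8 CPM in the KO lungs (-2.07 ± 0.22). Krt79, a keratin that is among the markers of alveolar macrophages, fell to 3.50, 5.67 and 6.67 CPM in the tumours, against 11.5 to 37.9 CPM in the KO lungs (-2.24 ± 0.40). The secreted proteins Azgp1 and Cytl1 fell too. Azgp1 had 2.25, 3.03 and 3.14 CPM in the tumours, against 8.22 to 15.9 CPM in the KO lungs (-2.08 ± 0.25). Cytl1 had 2.54, 5.55 and 3.18 CPM in the tumours, against 10.3 to 21.4 CPM in the KO lungs (-2.03 ± 0.32).

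Calls on 2 of the 12 largest falls rested on single libraries. Upk3b, a marker of mesothelium, had 11.4, 5.36 and 19.1 CPM in the tumours, against 49.5, 89.3, 60.2, 25.4 and 21.4 CPM in the KO lungs (-2.04 ± 0.56, adjusted p = 0.0405). Its call was lost without tumour 1 or 3 or KO lung 1, 2 or 3, with adjusted p between 0.0715 and 0.134. Cyp2a5, a cytochrome P450 with the near-identical neighbour Cyp2a4, had 18.7, 23.2 and 46.8 CPM in the tumours, against 149, 63.7, 51.3, 205 and 112 CPM in the KO lungs (-1.97 ± 0.51, adjusted p = 0.0329). Its call was lost without tumour 1 or 3 or KO lung 1, 6 or 7, with adjusted p between 0.0515 and 0.127. With the animal as a block 5 of the 12 largest falls stayed called: Sult1d1, Unc79, Cnn1, Scgb3a2 and Lypd2. The others had adjusted p between 0.054 (Azgp1) and 0.14 (Upk3b) there.

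**Figure D3:**
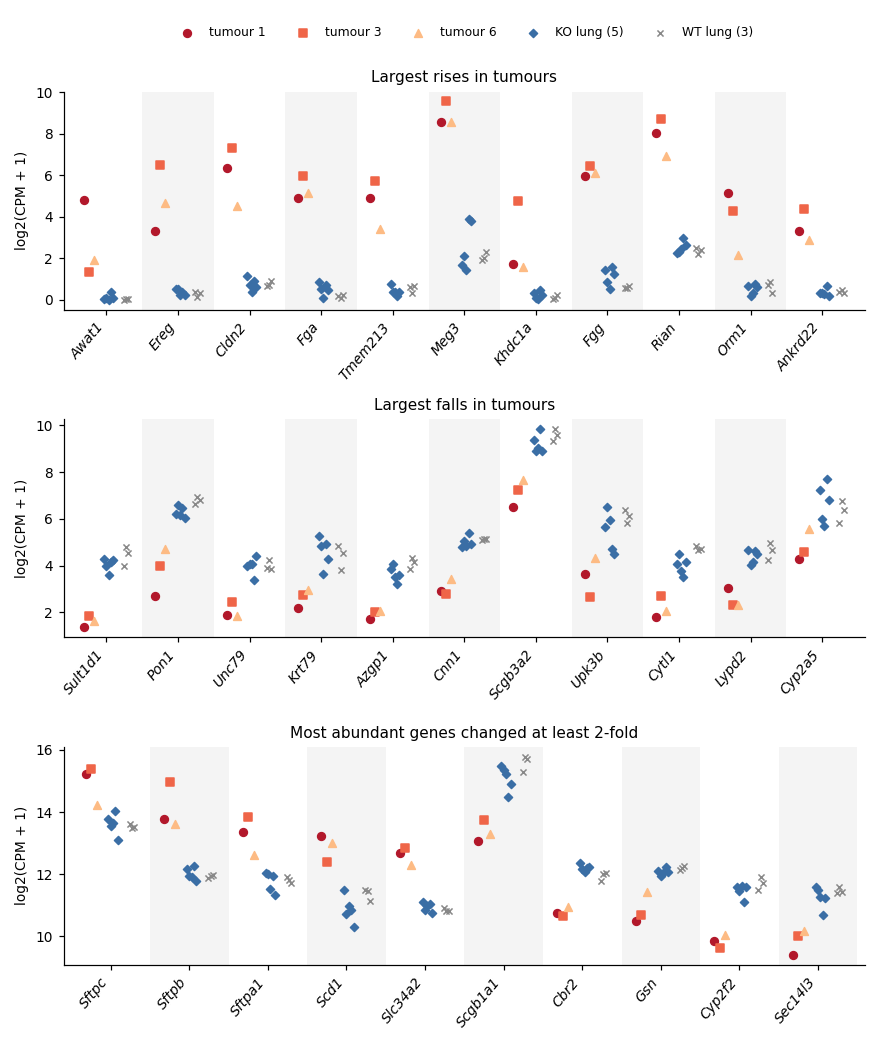
Level of each named gene in log2(CPM + 1) on the y axis, with 1 point per library for tumours 1, 3 and 6, the 5 KO lungs and the 3 WT lungs. The panels hold 11 of the 12 largest rises, 11 of the 12 largest falls and the 10 most abundant genes changed at least 2-fold, and the rule that chose them places the 3 tumours on 1 side of the 5 KO lungs.

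Genes of the type 2 cell were higher in the tumours, and they include the abundant messages of surfactant proteins. Of 18 genes tested, 14 were higher, 0 were lower and 4 were not called, with a median log2 fold change of 1.45 against -0.007 over all genes tested. The level of the list, which averages log2(CPM + 1) over the member genes, was 11.2, 11.1 and 10.7 in tumours 1, 3 and 6, against 9.34 to 10.0 in the KO lungs and 9.71 to 9.81 in WT lungs. Sftpc, which encodes surfactant protein C, had 38213, 42822 and 18982 CPM in the tumours, against 14019, 12072, 12729.5, 16686 and 8862 CPM in KO lungs 1, 2, 3, 6 and 7 (1.37 ± 0.32, adjusted p = 0.0222). Tumour 6 was close to KO lung 6, its partner, which was the highest lung. The call on Sftpc was lost without tumour 1 or 3 or KO lung 2 or 3 (adjusted p between 0.0553 and 0.0797).

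Sftpb, whose protein spreads the surfactant film, had 13993, 31680.4 and 12439.5 CPM in the tumours, against 4606, 3923, 3837, 4892 and 3525 CPM in the KO lungs (2.22 ± 0.32, adjusted p = 0.00366). Sftpa1, a collectin of surfactant, had 10412, 14746 and 6231 CPM in the tumours, against 4226, 4116, 2956, 3903 and 2602 CPM in the KO lungs (1.56 ± 0.30, adjusted p = 0.0105). Tumour 3 was the highest for both, and no lung reached the lowest tumour. Slc34a2, the phosphate transporter of type 2 cells, had 6535, 7411 and 5043 CPM in the tumours, against 2220.5, 1826, 2035, 2098 and 1724 CPM in the KO lungs (1.68 ± 0.19, adjusted p = 0.00168). Muc1, a membrane mucin, had 734, 753 and 618 CPM in the tumours, against 145 to 277 CPM in the KO lungs (1.74 ± 0.19). Lpcat1, which makes surfactant phosphatidylcholine, had 659.6, 848 and 462 CPM in the tumours, against 166 to 257 CPM in the KO lungs (1.63 ± 0.22). Abca3, which loads lipid into lamellar bodies, had 1074, 1184 and 977 CPM in the tumours, against 466 to 619 CPM in the KO lungs (1.00 ± 0.14). The 4 genes not called were Napsa, Lyz1, Lyz2 and Fabp5. Without tumour 6, 17 of the 18 were higher, and without KO lung 7, 13. Lpcat1 alone of the 18 was called with the animal as a block (adjusted p = 0.0476). Sftpc, Sftpb, Sftpa1, Slc34a2, Muc1 and Abca3 had adjusted p of 0.25, 0.0999, 0.145, 0.0719, 0.052 and 0.0767 there.

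Markers of the airway epithelium were lower in the tumours. All 18 ciliated cell genes tested were lower, with a median of -1.34 and list levels of 4.30, 4.39 and 4.03 in the tumours, against 4.97 to 6.00 in the KO lungs. Ccdc40, which sets the spacing of axonemal dynein arms, had 18.0, 19.5 and 16.02 CPM in the tumours, against 49.95, 46.2, 50.2, 33.8 and 62.6 CPM in the KO lungs (-1.44 ± 0.19, adjusted p = 0.00271). Dynlrb2, a dynein light chain, had 16.8, 12.4 and 10.9 CPM in the tumours, against 26.98 to 36.4 CPM in the KO lungs (-1.23 ± 0.18). Tekt1, a filament protein of axonemes, had 8.92, 7.80 and 6.59 CPM in the tumours, against 15.6 to 30.4 CPM in the KO lungs (-1.53 ± 0.22). Lrrc23 had 9.55, 12.9 and 9.39 CPM in the tumours, against 26.03 to 52.6 CPM in the KO lungs (-1.77 ± 0.24, adjusted p = 0.052 with the animal as a block). These 4 are even over the tumours, tumour 6 included. Sec14l3, an abundant marker of these cells, had 679.6, 1042 and 1166 CPM in the tumours, against 3069.8, 2866, 2452, 1646 and 2408 CPM in the KO lungs (-1.37 ± 0.27, and adjusted p = 0.145 with the block). All 18 calls held without tumour 6 or without KO lung 7, and the count was 11 to 15 without tumour 1 or 3 or KO lung 1, 2 or 3. Of the 18, 5 stayed called with the animal as a block.

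Club cell genes fell in 9 of 12 tested, with 0 higher and a median of -1.30. Their list level was 6.398, 5.58 and 5.61 in the tumours, against 6.68 to 7.47 in the KO lungs. Scgb1a1, the secretoglobin that defines club cells and the most abundant of the lower genes, had 8578, 13758 and 9965 CPM in tumours 1, 3 and 6. In KO lungs 1, 2, 3, 6 and 7 it had 45926, 41769, 37962, 22970.1 and 30757 CPM (-1.74 ± 0.32, adjusted p = 0.00918). Scgb3a2, a second secretoglobin, had 89.5, 151 and 203 CPM in the tumours, against 471 to 914 CPM in the KO lungs (-2.04 ± 0.33). Cyp2f2, the club cell P450 that activates naphthalene, had 919.7, 784 and 1046 CPM in the tumours, against 2205 to 3179 CPM in the KO lungs (-1.64 ± 0.20). Lypd2, a small surface protein, had 7.23, 4.06 and 3.92 CPM in the tumours, against 15.4 to 24.2 CPM in the KO lungs (-1.998 ± 0.26), and Cldn10, a claudin, 5.88, 6.85 and 9.04 CPM in the tumours, against 17.7 to 27.3 CPM in the KO lungs (-1.72 ± 0.20). No tumour reached the lowest lung in these 5 genes. Scgb3a1 did not follow them: it had 141, 4.02 and 1.55 CPM in the tumours, against 3.34 to 47.7 CPM in the KO lungs. The lower count was 9 without tumour 6, 8 without KO lung 7 and 6 without tumour 3, and 2 with the animal as a block (Scgb3a2 and Lypd2). Scgb1a1, Cyp2f2 and Cldn10 had adjusted p of 0.122, 0.072 and 0.0566 there. Cbr2, a carbonyl reductase that is abundant in lung, had 1719, 1602 and 1959 CPM in the tumours, against 4274 to 5228 CPM in the KO lungs (-1.42 ± 0.18, and adjusted p = 0.0759 with the block).

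Type 1 cell genes were lower in 5 of 18 tested, 0 were higher, and the median was -0.81. Their list level was 7.47, 8.11 and 8.53 in tumours 1, 3 and 6, against 8.48 to 9.17 in the KO lungs, so tumour 6 lay within the lungs. Hopx, a homeobox gene of these cells, had 203, 309 and 432 CPM in the tumours, against 824, 922, 660.4, 638 and 646 CPM in the KO lungs (-1.23 ± 0.26, adjusted p = 0.0155, lost without tumour 3 and, at 0.12, with the animal as a block). Tumour 6 was the nearest to the lungs. Aqp5 went the other way, with every tumour above every lung and means of 565 CPM in the tumours and 349 CPM in the KO lungs. It was not called (0.70 ± 0.25, adjusted p = 0.0929). Without tumour 6, 12 of the 18 were lower and 1, Aqp5, was higher (adjusted p = 0.0308). Without KO lung 7, tumour 1 or KO lung 1, 2 or 3, 1 was lower in each case, and without tumour 3, 0. Mesothelial genes were lower in 5 of 8 tested, with Nkain4 at 7.37, 5.87 and 10.2 CPM in the tumours, against 13.8 to 26.5 CPM in the KO lungs (-1.39 ± 0.26, and adjusted p = 0.0762 with the block). That count was 7 without tumour 6, 4 without KO lung 7, 3, 2 and 2 without KO lungs 1, 2 and 3, and 1 without tumour 1 or 3. Neuroendocrine markers were lower in 3 of 8 tested (1 without tumour 1 or KO lung 2). Syp, the vesicle protein synaptophysin, had 4.82, 6.03 and 7.56 CPM in the tumours, against 9.65 to 11.2 CPM in the KO lungs (-0.76 ± 0.17, adjusted p = 0.0224, and 0.118 with the block). Its call was lost without tumour 1 or 3 or KO lung 2 (adjusted p between 0.053 and 0.0898). Neurod1 had 0 reads in all 8 libraries. Of 12 basal and squamous markers 2 had enough counts to be tested, and neither was called. Krt5, which defines basal cells, had 0 reads in the tumours and 1 in the KO lungs, and Dsg3 had 0 in both.

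Markers of vessels and stroma separated tumours 1 and 3 from tumour 6. Of 25 endothelial genes tested, 4 were lower with all 3 tumours and 24 were lower without tumour 6 (24 without tumour 6 and KO lung 7). The list level was 6.51, 6.71 and 7.98 in tumours 1, 3 and 6, against 7.83 to 8.20 in the KO lungs, so tumour 6 lay within the lungs. Icam2, an adhesion molecule of endothelium, had 44.8, 54.2 and 115 CPM in the tumours, against 157, 181, 179.9, 161 and 154 CPM in the KO lungs (-1.23 ± 0.28, adjusted p = 0.0224, and 0.000183 without tumour 6). Cldn5, the claudin of endothelial junctions, had 110.4, 126 and 342 CPM in the tumours, against 404, 493, 474, 532 and 389 CPM in the KO lungs (-1.25 ± 0.36, adjusted p = 0.0482). Its log2 fold change was -1.95 without tumour 6. The 4 calls fell to 0 or 1 when any library other than tumour 6 was left out, and to 0 with the animal as a block (adjusted p = 0.087 for Icam2 and 0.0829 for Cldn5).

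Fibroblast genes were lower in 5 of 18 tested and in 15 without tumour 6, and smooth muscle and pericyte genes in 6 of 16 and in 13 without tumour 6. Without KO lung 7 the counts were 2 and 4, without tumour 1 they were 2 and 3, without tumour 3 they were 2 and 2, without KO lung 2 they were 2 and 4 and without KO lung 3 they were 2 and 3. Without KO lung 1 they were 3 and 5. Inmt, a methyltransferase of alveolar fibroblasts, had 447, 524 and 798 CPM in the tumours, against 1576, 1752, 1533, 1768 and 1496 CPM in the KO lungs (-1.46 ± 0.22, adjusted p = 0.00396, and 0.0609 with the animal as a block). Lum, a matrix proteoglycan, had 2.35, 2.84 and 2.40 CPM in the tumours, against 5.20 to 9.77 CPM in the KO lungs (-1.40 ± 0.27, and adjusted p = 0.072 with the block). Cox4i2, a pericyte subunit of cytochrome oxidase, had 15.7, 19.3 and 23.6 CPM in the tumours, against 33.8 to 43.0 CPM in the KO lungs (-1.02 ± 0.15, and adjusted p = 0.052 with the block). Tumour 6 was the highest tumour for Inmt and Cox4i2, and the 3 tumours were level for Lum. Gsn, the actin-severing gelsolin, had 1443, 1648 and 2728 CPM in the tumours, against 3966 to 4776 CPM in the KO lungs (-1.15 ± 0.24, and adjusted p = 0.103 with the block). Its call was lost without tumour 1 (adjusted p = 0.0524) or tumour 3 (0.073).

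Of 25 collagen and elastic fibre genes 1 was higher and 1 was lower, no more than the 7.2% and 6.61% of all genes tested. Without tumour 6, 10 were lower, against 14.3% of all genes, and 0 without any other 1 library. The higher one, Col15a1, a basement membrane collagen, had 190.1, 193 and 73.4 CPM in the tumours, against 12.5, 8.98, 14.1, 13.8 and 12.9 CPM in the KO lungs (3.61 ± 0.30, adjusted p = 0.000683), and it kept its call with the animal as a block (0.0476). Adipocyte genes were lower in 4 of 8 tested, and in 2 without KO lung 1. Cfd, the adipocyte protease adipsin, had 0.0330, 0.630 and 0 CPM in the tumours, against 8.32, 3.89, 2.48, 9.40 and 12.9 CPM in the KO lungs (adjusted p = 0.012, and 0.106 with the block). Heart muscle genes, of which edgeR called 0 of 12 (1 lower at an unadjusted p under 0.05 and 1 by DESeq2), had list levels of 2.27, 1.08 and 3.33 in the tumours, against 2.05 to 3.97 in the KO lungs and 4.68 to 5.02 in the WT lungs. Haemoglobin and other red cell genes had list levels of 3.90, 4.07 and 4.07 in the tumours, against 4.25 to 5.35 in the KO lungs. Their summed CPM was 859, 1072 and 2865 in tumours 1, 3 and 6, against 2119 to 4832 in the KO lungs, so tumour 6 lay within the lungs there. Of 9 tested, 1 was higher (0 without tumour 1) and 1 lower. The lower count was 3 without tumour 6, and 0 without tumour 1 or 3 or KO lung 1 or 6. The part of these tissues in the other differences was not tested.

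**Figure D4:**
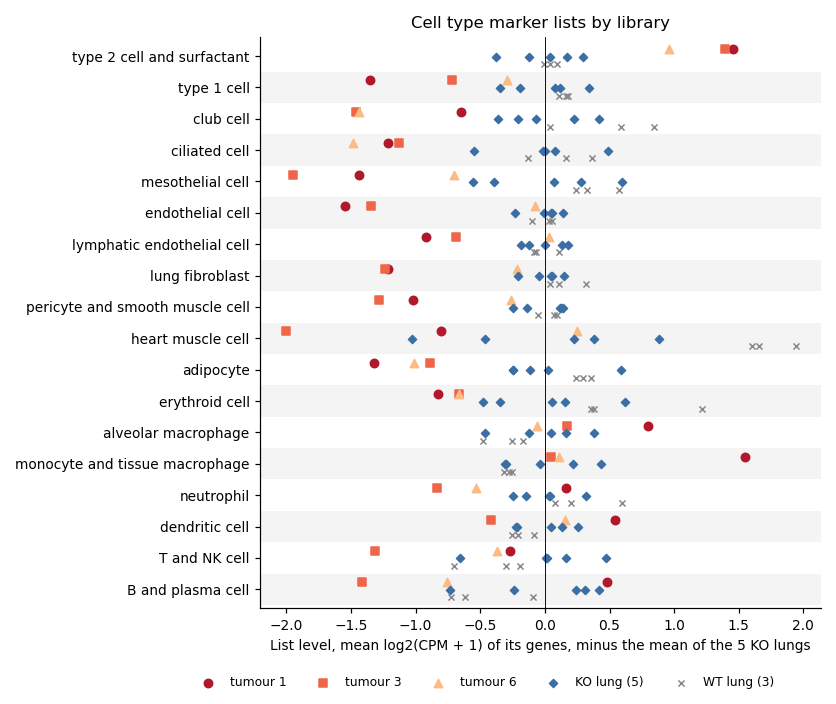
Level of each marker list, as log2(CPM + 1) averaged over the member genes minus the mean of the 5 KO lungs, on the x axis, with 1 point per library. Type 2 genes lie above the lungs in all 3 tumours and club, ciliated and mesothelial genes below, while tumour 6 lies within the KO lungs for endothelial genes.

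Targets of the MAPK cascade were higher in the tumours. Of 18 such genes tested, 11 were higher, 0 were lower and the median was 1.02, with list levels of 5.70, 6.23 and 5.73 in tumours 1, 3 and 6, against 4.96 to 5.05 in the KO lungs. Etv4, an ETS transcription factor induced by the cascade, had 16.3, 27.5 and 7.45 CPM in the tumours, against 1.06, 0.308, 0.299, 0.651 and 0.428 CPM in the KO lungs (4.97 ± 0.50, adjusted p = 0.00122). Dusp4, a phosphatase that switches off MAP kinases, had 36.3, 32.4 and 18.2 CPM in the tumours, against 11.2, 10.4, 10.2, 9.20 and 12.3 CPM in the KO lungs (1.44 ± 0.21, adjusted p = 0.00392). Spred1, an inhibitor of Ras signalling, had 208, 292 and 154 CPM in the tumours, against 75.8 to 92.7 CPM in the KO lungs (1.34 ± 0.18). Ccnd1, the cyclin D1 that opens the cell cycle, had 563, 810.3 and 544 CPM in the tumours, against 238 to 315 CPM in the KO lungs (1.21 ± 0.17). In these 4 genes every tumour was above every lung. The count of 11 was 12 without tumour 6, 8 without KO lung 7, 7 without KO lung 3, 6 without KO lung 2 and 0 with the animal as a block. With the block, Etv4, Spred1 and Dusp4 had an adjusted p of 0.052 and Ccnd1 of 0.072.

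Ligands and receptors of the EGF family were mixed, with 4 of 13 higher and 2 lower (1 without tumour 1 or 3). Beside Ereg, Areg, which encodes the ligand amphiregulin, had 14.7, 93.9 and 21.0 CPM in the tumours, against 6.59, 4.85, 3.57, 9.12 and 2.57 CPM in the KO lungs (3.02 ± 0.60, adjusted p = 0.013). Tumour 3 was far above the others, and without it the log2 fold change was 1.77. The ligand Nrg1, a neuregulin, was lower, at 1.55, 1.42 and 1.63 CPM in the tumours, against 2.89 to 4.97 CPM in the KO lungs (-1.35 ± 0.26). With the block Ereg stayed called (adjusted p = 0.0489), and Areg and Nrg1 had 0.189 and 0.103. The higher count was 6 without tumour 6 and 2 without KO lung 2 or 3.

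Among 24 genes that are often altered in lung cancer, 4 were higher and 2 lower. Ros1, a receptor tyrosine kinase, had 121, 162 and 57.6 CPM in the tumours, against 12.2, 8.63, 8.49, 4.96 and 5.95 CPM in the KO lungs (3.82 ± 0.36, adjusted p = 0.000998, and 0.0476 with the animal as a block). Met, the receptor of hepatocyte growth factor, had 187, 144 and 119.9 CPM in the tumours, against 60.8 to 94.2 CPM in the KO lungs (0.93 ± 0.18, and adjusted p = 0.0644 with the block). Cdkn2a, which encodes the cell cycle inhibitors p16 and p19, had 7.89, 12.4 and 3.06 CPM in the tumours, against 0.739 to 2.08 CPM in the KO lungs (2.31 ± 0.45, and adjusted p = 0.134 with the block). The fourth higher gene was Myc. The kinase gene Alk had 58 reads in tumour 1, 2 in tumour 3 and 1 in tumour 6, against 2 in the 5 KO lungs together. Trp53 had 42.8, 41.8 and 46.7 CPM in the tumours, against 36.4 to 50.01 CPM in the KO lungs. It was not called, and expression levels do not show whether a gene is mutated. The lower count was 0 without tumour 3 or KO lung 2, and 1 without tumour 1 or KO lung 1, 3 or 7.

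Targets of p53 were higher in 7 of 20 tested and lower in 1. Zmat3, an RNA-binding target, had 58.3, 65.8 and 68.2 CPM in the tumours, against 33.7, 30.5, 36.3, 38.4 and 36.2 CPM in the KO lungs (0.87 ± 0.11, adjusted p = 0.00228). Gdf15, a secreted stress factor, had 12.4, 26.2 and 6.13 CPM in the tumours, against 1.87 to 3.59 CPM in the KO lungs (2.37 ± 0.42, and 1.70 without tumour 3). Sesn2, a stress-induced brake on mTOR, had 42.5, 53.1 and 29.0 CPM in the tumours, against 16.3 to 23.04 CPM in the KO lungs (1.14 ± 0.20), and Eda2r, a receptor, 7.002, 11.1 and 8.42 CPM in the tumours, against 3.09 to 4.72 CPM in the KO lungs (1.16 ± 0.21). None of the 20 was called with the animal as a block (adjusted p = 0.0546 to 0.096 for these 4). The higher count lay between 5 and 7 with any 1 library left out, and the lower count was 0 without any 1 library other than tumour 6 (3) or KO lung 1 (1).

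Genes of cell division were not called. Of 25 mitosis genes tested 0 were called by edgeR, although 24 had a fold change above 0, and the median was 0.47. At an unadjusted p under 0.05, 6 were higher, and DESeq2 called 3. Of 25 DNA replication genes 0 were called, with a median of 0.21, 2 at the unadjusted p and 2 by DESeq2. Mki67, the marker of cycling cells, had 46.8, 21.9 and 35.5 CPM in the tumours, against 24.7, 13.7, 21.1, 27.6 and 18.6 CPM in the KO lungs (0.72 ± 0.27, adjusted p = 0.11). Tumour 3 lay within the lungs. Prc1, which bundles spindle microtubules, had 13.8, 10.2 and 8.34 CPM in the tumours, against 4.51 to 9.13 CPM in the KO lungs (0.80 ± 0.26, adjusted p = 0.071). Without tumour 6 or any other single library at most 2 genes of either list passed.

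Transcription factors of lung and foregut lineages were higher in 11 of 19 tested and lower in 0, with a median of 0.76. Nkx2-1, the lung identity factor, had 295, 428 and 289.8 CPM in the tumours, against 192, 174, 184, 221 and 205 CPM in the KO lungs (0.79 ± 0.16, adjusted p = 0.0122). Hnf4a, a factor of liver and gut, had 4.36, 29.1 and 2.71 CPM in the tumours, against 0.353, 0.424, 0.471, 0.163 and 0.311 CPM in the KO lungs (5.08 ± 0.76, adjusted p = 0.00423, and 3.34 without tumour 3). Tumour 3 was the highest for both. Foxa3, a forkhead factor of liver, had 1.68, 4.85 and 1.40 CPM in the tumours, against 0.0407 to 0.282 CPM in the KO lungs (4.23 ± 0.63, and 3.48 without tumour 3). Foxa3 and Hnf4a passed the filter for a test only through the tumours, so their calls add little to these levels. Elf5, an ETS factor of distal lung, had 63.7, 80.0 and 36.6 CPM in the tumours, against 16.2 to 26.4 CPM in the KO lungs (1.40 ± 0.24). With the animal as a block Hnf4a and Elf5 stayed called (adjusted p = 0.0476 and 0.0476), and Nkx2-1 and Foxa3 had 0.139 and 0.0668. Sox9, a factor of growing lung tips, had too few counts to be tested and stood out in 1 tumour, with 10.6, 0.394 and 0.155 CPM in tumours 1, 3 and 6 and no more than 0.661 CPM in a KO lung. Cdx2 had 0 reads in all 8 libraries. The higher count lay between 9 and 12 with any 1 library left out.

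Plasma proteins normally made by the liver had a median of 2.37 over 12 genes tested, of which 8 were higher and 0 lower. Of the 21 genes on the list 9 had too few counts to be tested. A gene near 0 in the lungs is tested only where the tumours carry it through the filter, so this median leans upwards. Fgg and Fga encode the gamma and alpha chains of fibrinogen, whose promoters are printed above. Fgg had 60.7, 86.1 and 67.4 CPM in tumours 1, 3 and 6, against 1.69, 0.809, 0.428, 1.95 and 1.36 CPM in KO lungs 1, 2, 3, 6 and 7 (5.88 ± 0.39, adjusted p = 0.000562). Fga had 28.8, 61.1 and 34.0 CPM in the tumours, against 0.776, 0.424, 0.0642, 0.651 and 0.389 CPM in the KO lungs (6.55 ± 0.51, adjusted p = 0.000671). Both were high in all 3 tumours, tumour 6 included, with tumour 3 the highest. The third chain, Fgb, is listed at 0 reads in all 8 libraries, and at no more than 0.892 CPM at embryonic day 19.5. Itih2, a serum protein that stabilises hyaluronan, had 36.9, 65.1 and 23.5 CPM in the tumours, against 3.24 to 6.30 CPM in the KO lungs (3.17 ± 0.32). Alb, the albumin gene, had 9.98, 24.7 and 4.65 CPM in the tumours, against 0.326 to 1.19 CPM in the KO lungs (4.32 ± 0.56, and 3.50 without tumour 3). All 4 kept their call with the animal as a block (adjusted p = 0.0476 to 0.0479). The count of 8 was 6 to 8 with any 1 library left out. Ambp had 0 reads in the tumours and the KO lungs.

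The noncoding RNAs of the imprinted cluster on chromosome 12 were higher in each tumour. Meg3, a maternally expressed noncoding RNA, had 370.0, 746 and 379.7 CPM in tumours 1, 3 and 6, against 2.22, 3.31, 1.71, 13.6 and 12.7 CPM in KO lungs 1, 2, 3, 6 and 7 (6.23 ± 0.74, adjusted p = 0.00226). Rian, a second noncoding RNA of the cluster, had 257, 412 and 121 CPM in the tumours, against 3.77, 3.85, 4.36, 6.76 and 5.17 CPM in the KO lungs (5.79 ± 0.38, adjusted p = 0.000562). Mirg, also noncoding, had 6.47, 12.01 and 3.30 CPM in the tumours, against 0 to 0.194 CPM in the KO lungs (6.51 ± 0.70). All 3 kept their call with the animal as a block (adjusted p = 0.0486, 0.0476 and 0.0476). Mirg passed the filter for a test through the tumours alone. In the WT lungs Meg3 had 2.80, 2.95 and 3.85 CPM and Rian 4.57, 3.63 and 4.30 CPM, and at embryonic day 19.5 the WT and KO lungs ranged over 988 to 2311 CPM for Meg3 and 452 to 846 CPM for Rian. Dlk1, a protein-coding gene of the cluster, is expressed from the paternal copy and did not follow in every tumour. It had 1690, 274 and 2 reads in tumours 1, 3 and 6, or 55.8, 10.8 and 0.0776 CPM, against 4 reads in the 5 KO lungs together. Tumour 6 was thus as low in Dlk1 as the lungs, at 379.7 CPM of Meg3. Of the 16 imprinted and oncofetal genes tested in all, 5 were higher and 1 was lower (5 without tumour 6 and 3 without KO lung 6). The oncofetal gene Afp, alpha-fetoprotein, had 4.95, 12.96 and 2.87 CPM in the tumours, against 0.684 to 1.23 CPM in the KO lungs (2.91 ± 0.45, 2.10 without tumour 3, and adjusted p = 0.0793 with the block).

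Claudins and connexins were higher in 9 of 22 tested and lower in 2. Beside Cldn2, the connexin Gjb1 had 25.1, 35.4 and 13.8 CPM in the tumours, against 1.15 to 3.10 CPM in the KO lungs (3.59 ± 0.36, and adjusted p = 0.054 with the animal as a block). Cldn2 kept its call with the block (adjusted p = 0.0483). The lower count was 0 without tumour 1 or 3, 1 without KO lung 1, 2, 3 or 7 and 5 without tumour 6. Keratins of simple epithelia were higher in 2 of 6 tested (3 without tumour 6, and 1 without KO lung 2, 3 or 7) and lower in 0 (1 without tumour 6). Of these, Krt23 had 52.98, 93.1 and 38.3 CPM in the tumours, against 14.7 to 22.4 CPM in the KO lungs (1.70 ± 0.26, and adjusted p = 0.068 with the block). Of 18 gastric and gut genes tested 3 were higher and 1 lower. Gkn2, a stomach secretory protein, had 2.84, 10.2 and 1.44 CPM in the tumours, against 1 read in the 5 KO lungs together (adjusted p = 0.00136, and 0.0476 with the block). It passed the filter for a test through the tumours alone, so its call adds little to these levels. The higher count of this list was 5 without tumour 6, 2 without KO lung 7 and 1 without any 1 of the other libraries.

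Fatty acid synthesis genes were higher in 8 of 18 tested and lower in 1. Scd1, the desaturase that makes oleic acid, had 9535, 5327 and 8231 CPM in the tumours, against 2888, 1668, 2038, 1854 and 1253 CPM in the KO lungs (1.99 ± 0.29, adjusted p = 0.00399). Fasn, the fatty acid synthase, had 1668, 1359 and 1556 CPM in the tumours, against 455, 424, 584, 549 and 579.8 CPM in the KO lungs (1.56 ± 0.16, adjusted p = 0.00131). No lung came near the lowest tumour in either gene. Acsl4, which activates long-chain fatty acids, had 583, 637 and 404 CPM in the tumours, against 150.0 to 177 CPM in the KO lungs (1.76 ± 0.16). Acaca, the carboxylase at the entry of the pathway, had 148, 187 and 176 CPM in the tumours, against 81.4 to 108 CPM in the KO lungs (0.89 ± 0.12), and Me1, which supplies NADPH, 585, 348 and 228 CPM in the tumours, against 78.3 to 127 CPM in the KO lungs (1.94 ± 0.27). With the animal as a block Acsl4 stayed called (adjusted p = 0.0476), and Scd1, Fasn, Acaca and Me1 had 0.0675, 0.0564, 0.0609 and 0.0719. The higher count lay between 6 and 9 with any 1 library left out.

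Cholesterol genes were higher in 6 of 22 tested and lower in 0, with smaller changes. Acat2, a thiolase at the entry of the pathway, had 72.4, 62.0 and 56.7 CPM in the tumours, against 36.1, 42.5, 36.9, 48.2 and 32.6 CPM in the KO lungs (0.70 ± 0.14, adjusted p = 0.0143, and 0.128 with the block). That count was 3 without tumour 1 or KO lung 1 or 2, and 4 without tumour 3 or KO lung 3 or 7. Glycolysis genes were higher in 6 of 18 tested, and in 12 without tumour 6. Hk2, a hexokinase, had 59.3, 68.3 and 46.3 CPM in the tumours, against 23.5, 29.1, 22.2, 22.3 and 28.7 CPM in the KO lungs (1.20 ± 0.15, adjusted p = 0.00261, and 0.0476 with the block). Ldha, lactate dehydrogenase A, had 811, 755 and 373 CPM in the tumours, against 245 to 326 CPM in the KO lungs (1.20 ± 0.23, and adjusted p = 0.126 with the block). Tumour 6 was nearest to the lungs for Ldha. The 6 calls were 2 without tumour 1, tumour 3, KO lung 2, KO lung 3 or KO lung 7 and 3 without KO lung 1. Genes of the mitochondrial respiratory chain were called in 0 of 24 tested by edgeR, 0 at an unadjusted p under 0.05 and 0 by DESeq2, and in 1 without tumour 6.

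Xenobiotic P450 genes fell in 8 of 14 tested, and 1 was higher, a call lost without any 1 library other than tumour 3 or 6. Cyp2s1 had 78.0, 92.1 and 80.4 CPM in the tumours, against 248, 208, 252, 147 and 291 CPM in the KO lungs (-1.46 ± 0.21, adjusted p = 0.00396). Cyp2e1, which oxidises ethanol, had 1.65, 3.74 and 2.60 CPM in the tumours, against 7.59 to 12.1 CPM in the KO lungs (-1.81 ± 0.29), and Cyp2b10 178, 198 and 232 CPM in the tumours, against 313 to 398 CPM in the KO lungs (-0.84 ± 0.14). None of the 14 was called with the animal as a block, where these 3 had adjusted p of 0.0564, 0.0564 and 0.112. The lower count was 5 without tumour 3, 6 without KO lung 7 and 9 without tumour 6. Oxidant defence genes were mixed, with 3 of 20 higher, 4 lower and a median of 0.06. The higher count was 2 without tumour 1 or KO lung 1, 2, 3 or 7, and 5 without tumour 6. The number lower was 1 without tumour 1 or 3 and 2 without any 1 KO lung. Gclc, the limiting enzyme of glutathione synthesis, and Hmox1, a haem oxygenase, were among the higher ones, and Ephx1, an epoxide hydrolase, and Gsta2, a glutathione transferase, among the lower. Gclc had 447, 428 and 393 CPM in the tumours, against 146 to 234 CPM in the KO lungs (1.26 ± 0.17, and adjusted p = 0.0602 with the block). Hmox1 had 167, 112 and 73.5 CPM in the tumours, against 34.6 to 52.7 CPM in the KO lungs (1.36 ± 0.24, and adjusted p = 0.0847 with the block). Ephx1 had 144, 158 and 179 CPM in the tumours, against 222 to 269 CPM in the KO lungs (-0.64 ± 0.12, adjusted p = 0.0103, lost without tumour 1 or 3 and, at 0.0983, with the block). Gsta2 had 0.495, 1.65 and 1.78 CPM in the tumours, against 3.83 to 7.57 CPM in the KO lungs (-2.17 ± 0.44, and adjusted p = 0.0893 with the block).

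Genes that carry, convert or sense retinoids were lower in 4 of 17 tested and higher in 1. Aldh1a1, which makes retinoic acid, had 316, 466 and 715 CPM in the tumours, against 1465, 1432, 1260.3, 1341 and 1062 CPM in the KO lungs (-1.39 ± 0.26, adjusted p = 0.0103, and 0.0826 with the block). Rbp4, the retinol carrier of plasma and the higher member, had 98.8, 60.3 and 22.3 CPM in the tumours, against 17.1 to 21.6 CPM in the KO lungs (1.61 ± 0.36, adjusted p = 0.0196, and 0.159 with the block). The lower count was 3 without any 1 library other than tumour 6, and 6 without tumour 6. The call on Rbp4 was lost without tumour 1 or 3 or KO lung 2 or 3 (adjusted p between 0.0502 and 0.0544). Wnt genes were higher in 3 of 30 tested and lower in 5, against 7.2% and 6.61% of all genes tested. Dkk2, a secreted Wnt modulator, had 9.78, 8.19 and 4.77 CPM in the tumours, against 0.917, 0.385, 0.706, 0.855 and 0.972 CPM in the KO lungs (3.30 ± 0.33, adjusted p = 0.00122). Wnt11, a ligand, had 6.54, 8.11 and 6.59 CPM in the tumours, against 21.96, 18.5, 18.1, 19.1 and 25.05 CPM in the KO lungs (-1.54 ± 0.16, adjusted p = 0.00138). Both kept their call with the block (adjusted p = 0.0476 and 0.0479). The lower Wnt count was 15 without tumour 6, 3 without tumour 3 or KO lung 1 or 2, and 2 without tumour 1 or KO lung 3. Of 22 hedgehog and BMP genes 2 were higher and 1 lower, near the shares over all genes tested, with a median of -0.46. Without tumour 6, 7 were lower, and without tumour 1 or 3, 0. Bmp4, a bone morphogenetic protein and 1 of the higher genes, had 137, 213 and 128 CPM in the tumours, against 64.8 to 77.5 CPM in the KO lungs (1.20 ± 0.16, and adjusted p = 0.0683 with the block).

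Genes of immune cells differed between the tumours. Of the 17 alveolar macrophage genes tested 4 were higher and 1, Krt79, was lower, and of 18 genes of monocytes and tissue macrophages 2 were higher. The second list had levels of 6.66, 5.16 and 5.22 in tumours 1, 3 and 6, against 4.802 to 5.55 in the KO lungs, so tumour 1 alone was above the lungs. Mrc1, the mannose receptor, was high in all 3: 219, 129 and 142 CPM in the tumours, against 106, 89.6, 92.5, 85.9 and 80.0 CPM in the KO lungs (0.85 ± 0.18, adjusted p = 0.0154, and 0.0889 with the animal as a block). Gpnmb, a glycoprotein of lipid-laden macrophages, had 467, 121 and 64.0 CPM in the tumours, against 53.1, 42.4, 72.3, 36.2 and 30.1 CPM in the KO lungs (2.21 ± 0.55, adjusted p = 0.0299). Its call was lost without tumour 1 (log2 fold change 1.01) or KO lung 1, 2, 6 or 7, and with the block (0.177). Spp1, osteopontin, was not called and had 3928, 135 and 149 CPM in the tumours, against 137 to 213 CPM in the KO lungs. The higher count of alveolar macrophage genes was 7 without tumour 6, 2 without KO lung 1 and 1 without tumour 1 or KO lung 2, 3, 6 or 7. That of the second list was 5 without tumour 6, 3 without tumour 3, 1 without KO lung 3 or 6 and 0 without tumour 1 or KO lung 1, 2 or 7.

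S100a9, a calcium-binding protein of neutrophils, was lower, at 18.0, 13.6 and 18.9 CPM in the tumours, against 53.4, 60.7, 44.3, 33.7 and 34.7 CPM in the KO lungs (-1.43 ± 0.23, adjusted p = 0.00545, and 0.0564 with the block). Of the 11 neutrophil genes tested 3 were lower. That count was 2 without tumour 1 or 3 and 1 without any 1 KO lung. T and NK cell genes were lower in 1 of 18 tested, near the 6.61% of all genes tested. That count was 6 without tumour 6, 1 without KO lung 2 and 0 without any 1 of the others. Of 14 B and plasma cell genes edgeR called 0 (3 lower at an unadjusted p under 0.05, 1 by DESeq2, and 4 called without tumour 1). Interferon-induced genes were called in 0 of 23 tested with all 3 tumours (1 lower at an unadjusted p under 0.05, 0 by DESeq2) and were lower in 15 without tumour 6. Their list level was 3.70, 3.68 and 5.22 in tumours 1, 3 and 6, against 4.22 to 4.87 in the KO lungs, so tumours 1 and 3 lay below the lungs and tumour 6 above. Ciita, the master regulator of MHC class II genes, had 137, 88.2 and 104 CPM in the tumours, against 68.3, 37.5, 53.4, 51.4 and 48.2 CPM in the KO lungs (1.08 ± 0.20, adjusted p = 0.00887, and 0.054 with the block), and 2 of 10 class II genes were higher (5 without tumour 6, and 1 without tumour 1 or 3 or KO lung 2, 3 or 7). Calls on immune checkpoint genes were near the shares over all genes tested, 7.2% higher and 6.61% lower. Of 17 tested, 1 was higher (3 without tumour 3 or 6) and 1 lower (0 without any 1 library other than tumour 6 or KO lung 6). The higher one, Cd276, the checkpoint ligand B7-H3, had 29.9, 25.4 and 17.5 CPM in the tumours, against 7.74 to 12.01 CPM in the KO lungs (1.27 ± 0.21, and adjusted p = 0.0826 with the block).

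Levels spread more widely over the 3 tumours than over the 5 KO lungs. The median standard deviation of log2(CPM + 1) over genes was 0.235 in the 3 tumours and 0.194 in the 5 KO lungs, and 60.6% of genes had the larger one among the tumours. No test was made of this difference. Of the genes tested, 16 stood at least 8-fold above both other tumours in tumour 1, 4 in tumour 3 and 2 in tumour 6, on the scale of CPM + 1. At least 8-fold below both others stood 1 in tumour 1, 1 in tumour 3 and 2 in tumour 6.

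In tumour 1 the genes farthest above both other tumours include genes of mucous secretion and of alternatively activated macrophages. Clca1, a secreted protein of goblet cells, had 468, 0.0394 and 0.155 CPM in tumours 1, 3 and 6, against 3.98, 0.0385, 0, 0 and 0.0778 CPM in KO lungs 1, 2, 3, 6 and 7. Chil4, a chitinase-like protein, had 89.6, 0.118 and 0.116 CPM in the tumours, against 0 to 0.231 CPM in the KO lungs. Arg1, an arginase of alternatively activated macrophages, had 92.1, 2.01 and 1.98 CPM in the tumours, against 1.39 to 2.19 CPM in the KO lungs. Clca1 and Chil4 did not pass the filter for a test, and without tumour 1 Arg1 had a log2 fold change of 0.19. Saa3, an acute-phase protein, had 68.3, 1.62 and 0.659 CPM in the tumours, against 0.813 to 2.08 CPM in the KO lungs, and Bpifb1, an airway secretory protein, 57.2, 0.630 and 1.20 CPM in the tumours, against 2.23 to 19.02 CPM in the KO lungs. Mmp12, the macrophage elastase, was highest in the same tumour, with 426, 45.0 and 23.1 CPM in the tumours, against 6.84 to 11.6 CPM in the KO lungs (4.25 ± 0.80, and 2.01 without tumour 1). Its list of 21 matrix proteases and their inhibitors had 3 genes higher (6 without tumour 6) and 4 lower (1 or 2 without any 1 library other than tumour 6).

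Tumour 3 stood apart in Khdc1a and Hnf4a, given above, and in Zmat4, Egr1, Fmo4 and Errfi1. Egr1, an immediate early gene, had 38.4, 404 and 73.8 CPM in the tumours, against 21.5 to 37.5 CPM in the KO lungs. Errfi1, a feedback inhibitor of the EGF receptor, had 184, 863 and 181 CPM in the tumours, against 91.6 to 252 CPM in the KO lungs. Zmat4, a zinc finger gene, had 5.48, 34.7 and 2.91 CPM and Fmo4, a flavin monooxygenase, 3.77, 40.5 and 6.67 CPM in the tumours, against 0.651 to 2.37 and 1.52 to 3.78 CPM in the KO lungs. The EGF receptor ligands Ereg and Areg were highest in the same tumour.

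The genes farthest above both other tumours in tumour 6 were near lung levels in it and low in tumours 1 and 3, or shared with the lung of the same animal. Genes that stood apart by being low in tumour 6, such as Dlk1 above, were not picked by this rule. Mcc had 19.5, 18.0 and 138 CPM in the tumours, against 42.5 to 116 CPM in the KO lungs, and Ankrd63 6.14, 7.21 and 47.3 CPM in the tumours, against 23.4 to 49.9 CPM in the KO lungs. Cyp1a1, the P450 induced through the aryl hydrocarbon receptor, had 1.59, 3.07 and 50.5 CPM in tumours 1, 3 and 6, against 1.90, 4.39, 2.502, 77.4 and 2.45 CPM in KO lungs 1, 2, 3, 6 and 7. The 2 high values are the tumour and the lung of animal 6. The globin gene Hbb-bs had 44.4, 61.9 and 609.6 CPM in the tumours, against 112, 173, 86.0, 649 and 308 CPM in the KO lungs, with lung 6 again the highest. Myh6, a heart muscle myosin, had 14.01, 0.709 and 80.7 CPM in the tumours, against 39.3, 32.0, 4.68, 12.3 and 125 CPM in the KO lungs, and here lung 7 was the highest and lung 6 was not.

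**Figure D5:**
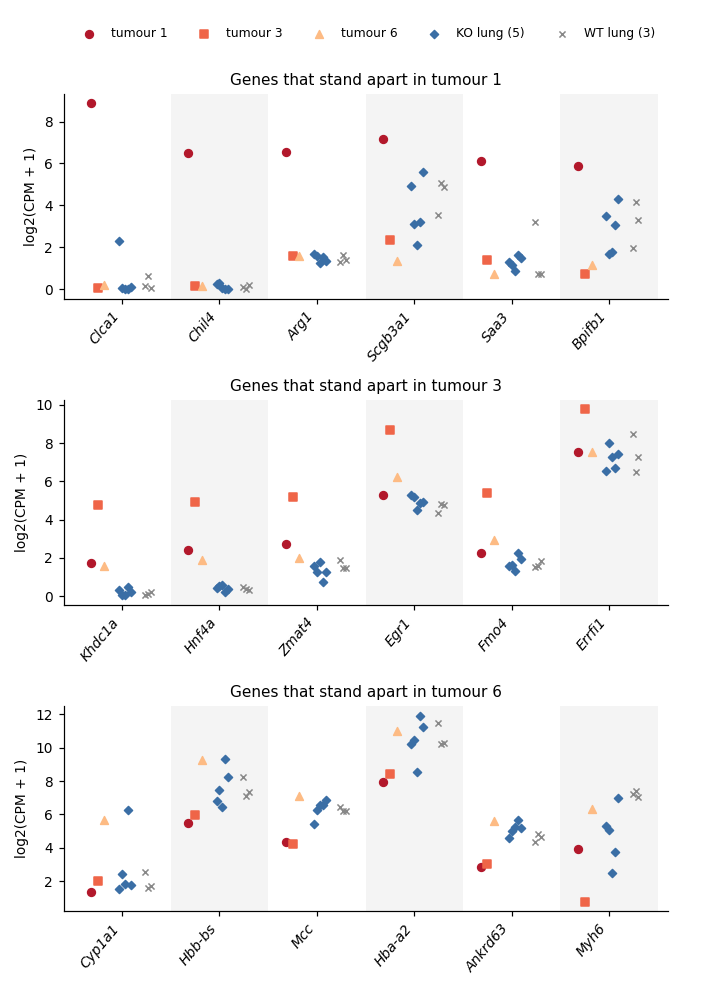
Level in log2(CPM + 1) on the y axis of the 6 genes farthest above both other tumours, for tumours 1, 3 and 6 in turn. Each library is 1 point, for tumours, the 5 KO lungs and the 3 WT lungs. Genes of tumours 1 and 3 are mostly above the lungs in that tumour, while those of tumour 6 lie near or within the range of the lungs.

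Levels were also compared by chromosome, without a test. The median over the genes of a chromosome of log2(CPM + 1) relative to the KO lungs, centred on all genes, was at most 0.0572 from 0 in any tumour, and up to 0.0765 among the KO lungs themselves. Over genes of at least 1 CPM on average, tumour 1 lay outside the range of the 5 KO lungs on 8 of 20 chromosomes, tumour 3 on 6 and tumour 6 on 4. With genes of at least 10 CPM these numbers were 6, 3 and 4. A further lung can also fall outside the range of 5, and how often was not measured. On chromosome 1 the median was 0.0567 in tumour 1, against -0.0487 to 0.0273 in the KO lungs, and on chromosome 4 it was -0.0371, against -0.0104 to 0.0103 in the KO lungs. With the 10 CPM genes tumour 1 had 0.0387 on chromosome 1, against -0.0582 to 0.0361. On chromosome 4 it had -0.0503, against -0.0112 to 0.0192.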

How the data were processed

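RNA-seq of whole lung or tumour tissue gave 23 libraries, of which the 8 of the comparison and the 3 WT lungs of 18 months are described. For a few genes the range over the WT and KO lungs of embryonic day 19.5 is added. Reads were processed with Trimmomatic 0.36, STAR 2.5.2b and RSEM 1.3.0 on mm10, per the submitters' processing notes. The authors deposited, per gene and library, expected counts from RSEM and FPKM values (fragments scaled to gene length and library size). Their gene annotation is not given in the sources used here.

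Expected counts were rounded to whole numbers. edgeR 4.0.16 (R 4.3.3; TMM scaling, filterByExpr, quasi-likelihood test, prior count 0.125) was fitted to the 8 libraries, 3 tumours and 5 KO lungs, without other terms, and 15459 of 24411 genes passed the filter. A gene near 0 in 1 group is therefore tested only where the other group has enough counts. CPM values were computed here from the TMM-scaled library sizes. For the WT lungs and the lungs of embryonic day 19.5 the factors came from all 23 libraries, brought to the scale of the 8. Library totals ran from 23661181 to 46566642 counts, and after TMM scaling 1 CPM stands for 24.6 to 46.8 reads. Apart from the animal codes the labels do not say how replicates were taken, so the p-values speak only of how far these samples spread, which may be technical. All 13 pairs of libraries within groups differed beyond sampling noise. The 3 shared codes mark tumour and lung of 1 animal, so a fit with the animal as a block was an alternative. Deviations from the group means of tumour and lung of animals 1, 3 and 6 correlated at 0.458, 0.0125 and 0.0613. For tumours and lungs of different codes the correlations ran from -0.465 to 0.269. Tumour 3 correlated more with lung 2 (0.255), and tumour 6 with lung 7 (0.269), than with the lung of the same code. In the blocked fit KO lungs 2 and 7 have no partner and add nothing to the contrast. Among the 34 genes named for size or abundance its smallest adjusted p was 0.0476, shared by several genes. Kept calls there thus lie just under 0.05.

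Other alternatives were DESeq2 1.42.0, its size factors, no filter, a filter of 10 CPM in 3 libraries, a fit over all 23 libraries, the animal as a random block in limma 3.58.1 (voom), limma on log2(FPKM + 1) and log2(FPKM + 0.1), a prior count of 2 and each library left out in turn. A fit without tumour 6 and KO lung 7 together was chosen after seeing the data. Scripts were tested on counts simulated at the depths and spread of the 8 libraries. The edgeR test called 8 of 62 changes of 1.5-fold, 38 of 70 of 2-fold and 60 of 68 of 4-fold. Fewer genes were called there (112) than here, so these shares need not hold for the data. A gene not called may still differ.

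The genes named first are the 12 largest called changes in each direction whose groups do not overlap and whose higher group averages 10 CPM or more, and the 5 most abundant in each direction changed at least 2-fold. Predicted genes, pseudogenes and antigen receptor segments were skipped. From each list the text takes the members of smallest adjusted p (4 at most), plus defining members near 0. For the spread among tumours it takes the 6 genes per tumour with the largest gap above both others, at 20 CPM or more. Other genes named (among them Nkx2-1, Trp53, Mki67, Alk and Dlk1) were chosen after their values were seen. Some genes that these rules name are not reported here. The comparison, its members and the 54 gene lists were chosen with earlier results of these data known, so lists are described by counts and medians and not tested. Figures were drawn with matplotlib 3.10.9.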

Additional observations from a re-analysis of the deposited data

Results flagged for a closer look

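Within groups of 4 to 10 samples, 7 of 108 groups of values held a library that stood apart from the others by Dixon's criterion (0.71 for 5 samples), and chance flags about 1 in 20 groups. All 7 are among the KO lungs, the only group of that size here, so no other group was tested. In KO lung 7 Xist was 835.8 CPM, against 0.0705 to 0.529 CPM in the other 4 KO lungs. Ddx3y was 0 CPM in the same lung, against 47.1 to 62.4 CPM in the others, and Kdm5d was 0 CPM, against 21.4 to 26.97 CPM. This lung is labelled male. Myh6, a heart muscle myosin, was 125.5 CPM in it, against 4.68 to 39.3 CPM in the others. In KO lung 6 Cyp1a1 was 77.44 CPM, against 1.90 to 4.39 CPM in the others, and Awat1 was 0.2849 CPM, against 0 to 0.0389 CPM. Ankrd22 was 0.5697 CPM there, against 0.117 to 0.247 CPM. Awat1 and Ankrd22 were called higher in the tumours, and both kept their call without KO lung 6.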

How the results depend on the processing

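Against 1113 genes higher and 1022 lower in the tumours, DESeq2 called 1680 and 1732, and the fit over all 23 libraries 2533 and 2625. The filter of 10 CPM in 3 libraries, which tests fewer genes, left 618 lower, and 328 higher and 316 lower at 2-fold or more, where the numbers were 582 and 637. The animal as a replicate block left 84 higher and 62 lower, all at least 2-fold, and with it 35 of 170 named called genes stayed called, all in the same direction. With the animal as a replicate block taken as a random effect (limma-voom), 1208 were higher and 1355 lower, and 165 of the 170 stayed called. With limma on log2(FPKM + 1) 295 genes were higher at 2-fold or more. Leaving out 1 library gave 624 to 1832 higher and 410 to 2234 lower, and at 2-fold or more 420 to 840 higher and 331 to 1426 lower. Without tumour 6 and KO lung 7 together, chosen after seeing the data, 1962 were lower, 1298 of them at 2-fold or more. Of the calls in the main comparison, 2116 held with DESeq2's size factors and 1743 with limma on log2(FPKM + 1). None of the 170 genes changed direction in the alternatives in which it was tested, and for the changes in number the cause was not tested. The medians of 10 lists changed sign under at least 1 alternative. Of these the chemokine list had the largest median, 0.42, against -0.30 without tumour 1, and the other 9 lay between -0.21 and 0.27. Depth limits the genes under 1 CPM, which rest on no more than 24.6 to 46.8 reads a library.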
